A study of Mus musculus with 6 samples.

Results

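Foxp3, the forkhead transcription factor that defines regulatory T cells (Treg), was examined together with 5 factors that act with it: Ikzf1, Ikzf2, Runx1, Cbfb and Foxp1. Members were all probe sets whose platform annotation gives one of these symbols as the only symbol. A probe set is the group of short array probes that reads a transcript. The rule found 16 probe sets of 6 genes, out of 22626 probe sets tested and 12393 genes named by them. Foxp3, Ikzf1, Ikzf2 and Cbfb were read by 1 probe set each, Runx1 by 5 and Foxp1 by 7.

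The samples were mouse CD4+CD25+ T cells separated magnetically, all on a C57Bl/6 background. The p300-deleted group had the genotype fl-p300/Foxp3cre, a floxed allele of the histone acetyltransferase p300 with Cre recombinase under the control of Foxp3, so deletion takes place in cells that express Foxp3. The control group was labelled Foxp3cre by genotype, so both groups carry Foxp3cre by that label, but its sample titles and the design text also call it wild type. The labels do not describe the Foxp3 allele of each group, how many animals went into a sample, or their age. There were 3 arrays in each group. The design text calls the samples independent without saying whether each is a different animal, so the p-values reflect only the variation among these samples, part of which may be technical. The study's title places the comparison in the role of p300 in Foxp3+ Treg. With 0 probe sets listed for Ep300, the gene of p300, the deletion was not checked here.

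Foxp3 binds DNA through its forkhead domain and works in large protein complexes. Runx1 is a DNA-binding factor that pairs with Cbfb, a subunit that does not bind DNA itself and steadies Runx proteins on DNA, and the pair acts both on the Foxp3 gene and together with the Foxp3 protein. Ikzf1 (Ikaros) and Ikzf2 (Helios) are zinc finger factors of lymphocytes, and Helios is much used as a marker of Treg that arise in the thymus. Foxp1 is a close relative of Foxp3 that is expressed in many T cells and can pair with it. p300 acetylates histones at active enhancers and promoters and also acetylates the Foxp3 protein.

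Foxp3 carried the largest difference in the table, and the DNA-binding factors among the 6 recognise motifs that can be looked for in start regions. The start regions of Foxp3, Runx1 and Foxp1 are shown, the genes with a motif match in any window. The windows of Ikzf1 and Cbfb held 0 matches and are not shown. Sequences are from RefSeq, build GRCm38.p6, and run from 250 bases before a transcript start to 50 after it. Capitals mark matches on either strand to 3 short motifs, the RUNX core TGTGGT, a forkhead core TAAACA and an Ikaros core TGGGAA, none of which overlap in these windows. Of the windows RefSeq gives for each gene, the one with the most matches is shown. The Foxp3 window lies at chrX:7579426-7579725 on the plus strand.
Foxp3: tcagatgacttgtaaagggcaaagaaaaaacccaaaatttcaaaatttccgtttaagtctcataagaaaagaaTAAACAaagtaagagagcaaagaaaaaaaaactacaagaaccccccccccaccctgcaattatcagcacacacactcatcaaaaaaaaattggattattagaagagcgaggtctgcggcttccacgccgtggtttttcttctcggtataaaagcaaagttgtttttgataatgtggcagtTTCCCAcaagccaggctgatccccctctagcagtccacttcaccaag
The Runx1 window lies at chr16:92826025-92826324 on the minus strand.
Runx1: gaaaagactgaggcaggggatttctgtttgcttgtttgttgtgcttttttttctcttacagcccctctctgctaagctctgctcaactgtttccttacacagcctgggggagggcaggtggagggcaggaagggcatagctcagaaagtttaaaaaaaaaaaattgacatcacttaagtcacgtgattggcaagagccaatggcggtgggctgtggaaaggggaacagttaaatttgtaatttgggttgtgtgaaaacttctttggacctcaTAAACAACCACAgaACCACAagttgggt
The Foxp1 window lies at chr6:99266466-99266765 on the minus strand.
Foxp1: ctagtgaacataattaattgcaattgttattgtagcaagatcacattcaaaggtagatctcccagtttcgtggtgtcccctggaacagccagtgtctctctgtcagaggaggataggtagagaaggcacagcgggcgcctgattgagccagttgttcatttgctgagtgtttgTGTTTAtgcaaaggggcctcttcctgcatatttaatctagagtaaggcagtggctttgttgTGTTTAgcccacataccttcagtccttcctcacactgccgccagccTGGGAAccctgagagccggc

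The Foxp3 window shown held 1 forkhead match and 1 Ikaros match, without the letters TGTGGT, and the other Foxp3 window held 0 matches. The Runx1 window shown held 2 RUNX matches and 1 forkhead match, all within the 50 bases after the start, and the other Runx1 window held 0. The Foxp1 window shown held 2 forkhead matches and 1 Ikaros match, and the other 2 Foxp1 windows held 1 forkhead match each. RefSeq gave 10 such windows for 5 of the 6 genes (Ikzf2 had none), of which 1 held the RUNX core, 5 the forkhead core and 2 the Ikaros core. Over all 32851 windows of this length in the RefSeq table, the shares were 16.8% for the RUNX core, 13.4% for the forkhead core and 25.6% for the Ikaros core. These matches describe the letters only and were not tested as binding sites.

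The 6 arrays were alike in overall distribution and differed in a few measures that bear on the results. Across probe sets, the lowest correlation between 2 arrays was 0.9945 among p300-deleted arrays, 0.9881 among controls and 0.9855 across groups. Gapdh controls, which gauge RNA integrity by the gap between their 3' and 5' probe sets, had gaps of 0.06 to 0.14 in the p300-deleted arrays and 0.21 to 0.59 in the controls, with no overlap. The same gap of the actin controls was 0.29 to 0.43 and 0.30 to 0.46, with overlap. All 7 markers of CD4 T cells and Treg (Cd3e, Cd3d, Cd3g, Cd4, Cd5, Il2ra, Ctla4) were 0.11 to 0.68 higher in p300-deleted arrays. Of these 0 passed the test in limma, and 2 had an unadjusted p under 0.05 (14.4% of all probe sets tested did). Mean levels of plasma cell markers were 7.98 to 8.56 in p300-deleted and 6.81 to 7.24 in control arrays, with 3 of 4 higher past the test (0.29% of all genes were), and those of mast cell and basophil markers 5.53 to 6.24 and 4.35 to 4.70, with 3 of 7 higher. Means of 9 myeloid markers were 5.57 to 7.19 in p300-deleted and 4.33 to 5.26 in control arrays, and those of 9 B cell markers 5.04 to 5.53 and 5.48 to 5.59. Means of 5 NK cell markers were 7.64 to 8.27 and 7.46 to 7.60, and those of 2 CD8 T cell markers 5.36 to 5.55 and 5.18 to 5.25. Of the myeloid, B cell, NK cell and CD8 T cell markers 0 passed the test in limma (0.452% of all genes did). Differences were positive for 9 myeloid, 1 B cell, 3 NK cell and 2 CD8 T cell markers. They ran from 0.07 to 2.59 for myeloid and from -0.37 to 1.46 for NK cell markers. The B cell markers Cd79a, Cd79b and Ms4a1 read 6.37 to 8.12 over the 6 arrays. By their brightest probe sets, the B cell markers Ebf1, Pax5, Cr2 and Fcer2a and the basophil marker Ms4a2 read 2.55 to 3.61. These readings are within the range of control probe sets for bacterial RNA. The basophil protease Mcpt8 read 6.25 to 8.22 in p300-deleted and 4.26 to 5.03 in control arrays. Its difference did not pass the test (adjusted p = 0.0566 by limma). The part of these markers in the results below was not tested.

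Foxp3 fell to within the range of the array background in p300-deleted cells. Its probe set, 1420765_a_at, read 9.63, 9.35 and 9.39 in controls 1, 2 and 3, and 2.57, 3.04 and 3.15 in p300-deleted arrays 1, 2 and 3, on the log2 scale of the deposited values. The groups lay far apart, and the spread within each was small beside the gap. The difference, p300-deleted minus control, was -6.53 (SE 0.16, 95% interval -6.91 to -6.16, adjusted p = 1.3e-06 by limma with Benjamini-Hochberg adjustment over all 22626 probe sets), from 9.46 ± 0.16 (SD, n = 3) to 2.92 ± 0.31 (SD, n = 3). It ranked first by size among all probe sets, followed among falls by a probe set with no listed gene at -3.01. All 15 alternatives for Foxp3 kept it past the threshold, from -6.65 to -6.36.

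The low reading of Foxp3 is a bound rather than a level. The array carries 27 control probe sets for bacterial genes that match no mouse transcript. In p300-deleted arrays 1, 2 and 3 their median was 2.18, 2.34 and 2.28 and their highest value 3.66, 3.83 and 3.89, and 4, 1 and 1 of them read above Foxp3. Foxp3 in the p300-deleted cells therefore lay within the range of probe sets that have no target. In the controls 0 of the 27 read above Foxp3. Taken against the highest bacterial control of each p300-deleted array, Foxp3 was at least 50.7-fold lower in p300-deleted cells. The probe set's suffix marks it as one that can bind several transcripts of the gene, and the labels and annotation do not place it within the transcript. In bulk samples, fewer cells that express a gene and less RNA per cell cannot be told apart. The labels do not settle whether both groups carry the same Foxp3 allele, so a difference in that allele and the deletion of p300 cannot be told apart in this value. Il2ra, the CD25 chain by which the cells were separated, read 8.99, 8.62 and 9.07 in controls and 9.16, 9.09 and 9.17 in p300-deleted arrays, and its difference was 0.25 (SE 0.13, 95% interval -0.06 to 0.55, adjusted p = 0.458 by limma).

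**Figure D1:**
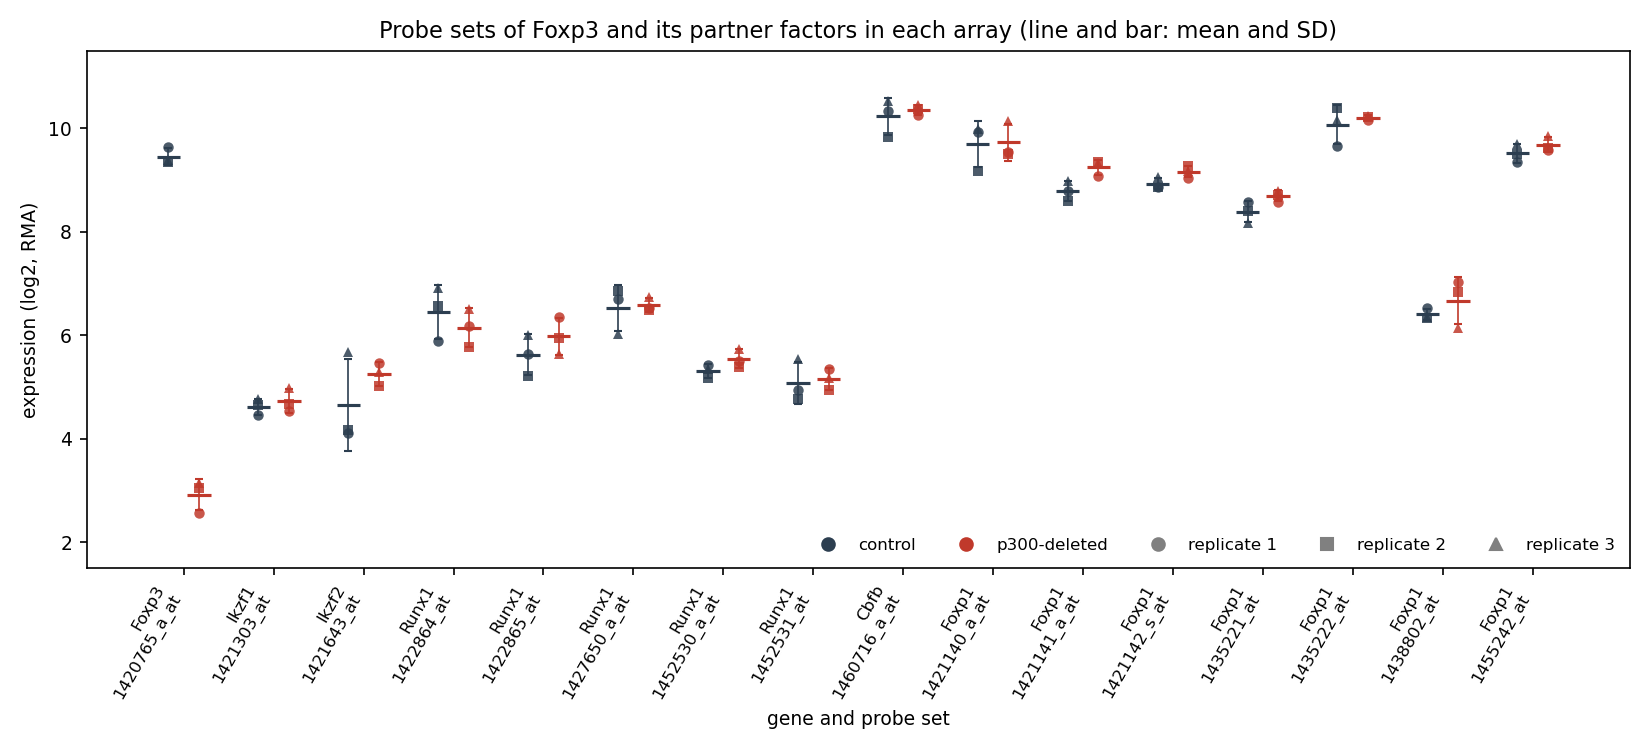
Expression (log2, RMA) of each probe set, named below the axis, in the 3 control arrays (dark) and the 3 p300-deleted arrays (red), with marker shapes for the replicate number and lines and bars for mean and SD. Foxp3 drops from 9.46 to 2.92 with no overlap, whereas control 3 of Ikzf2, at 5.68, lies apart from controls 1 and 2 at 4.11 and 4.18.

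Of the 16 probe sets, 1 passed the test, that of Foxp3, against 0.455% of all probe sets tested (103 of 22626, with 80 or 0.354% higher and 23 or 0.102% lower in p300-deleted cells). With arrays centred on their medians 159 were called, 97 of them higher. The count over the table leaned on single arrays. Leaving out p300-deleted 1, 2 or 3 gave 29, 38 or 45, and leaving out control 1, 2 or 3 gave 24, 108 or 384. With 18S ribosomal RNA as a covariate it was 20. The 15 probe sets of the 5 partner genes did not pass, with adjusted p of 0.176 to 0.975 in limma, and 2 of them had an unadjusted p under 0.05 (14.4% of all probe sets tested did). Their differences ran from -0.31 to 0.60, with a median of 0.17 against -0.02 over all probe sets, and their 95% intervals together reached from -0.93 to 1.46. All 16 lay above the dimmest 30% of probe sets by their mean over both groups. For Foxp3 this rests on its control readings. In p300-deleted arrays 1, 2 and 3 it lay above only 10.8%, 20.4% and 22.6% of probe sets.

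**Figure D2:**
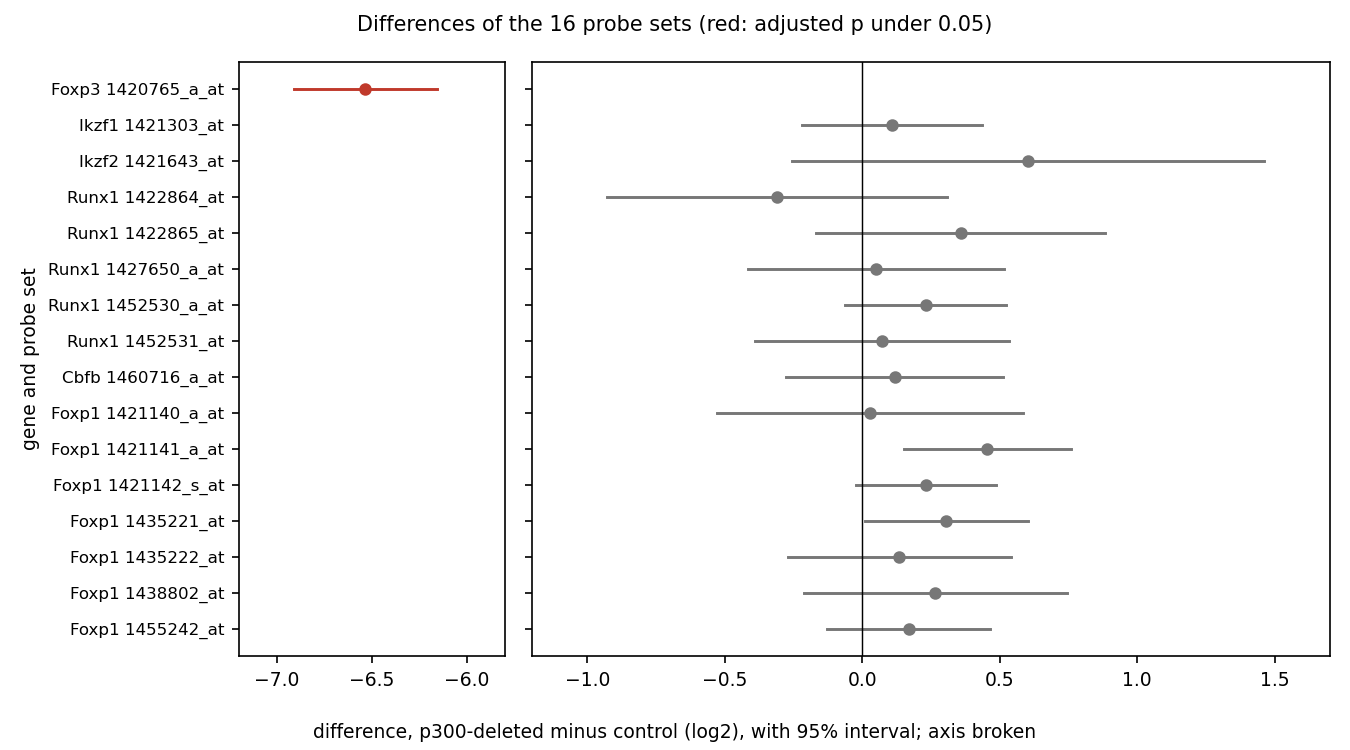
Difference between the groups (p300-deleted minus control, log2) with its 95% interval for the 16 probe sets, on a broken axis, with red for an adjusted p under 0.05. Only Foxp3, at -6.53, passed the threshold, and the interval of Ikzf2, -0.25 to 1.46, is the widest of the partner genes.

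Runx1, the DNA-binding chain of the core binding factor, showed no change past the test in any of its 5 probe sets. The probe set 1427650_a_at, the brightest by its mean over the arrays, read 6.71, 6.85 and 6.03 in controls and 6.53, 6.49 and 6.73 in p300-deleted arrays, with control 3 the lowest. Its difference was 0.05 (SE 0.20, 95% interval -0.41 to 0.52, adjusted p = 0.946 by limma). The 2 probe sets designed from the same reference transcript, 1422864_at and 1422865_at, pointed in opposite directions. The first read 5.89, 6.56 and 6.92 in controls and 6.17, 5.76 and 6.51 in p300-deleted arrays, a difference of -0.31 (SE 0.27). The second read 5.65, 5.21 and 6.01 and then 6.35, 5.94 and 5.65, a difference of 0.36 (SE 0.23). The groups overlapped for both. They were picked as the lowest and highest differences of the gene, so the 0.67 between them is a description. An exact permutation test of this pair gave p = 0.2, with 0.1 the smallest possible, and the picking leaves that p-value without a plain reading.

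The other Runx1 probe sets, 1452530_a_at and 1452531_at, differed by 0.23 (SE 0.13, 95% interval -0.06 to 0.52) and 0.07 (SE 0.20, 95% interval -0.39 to 0.53). Over the 6 arrays the 10 pairs of Runx1 probe sets correlated from -0.79 to 0.73, with a median of -0.01, a description of probe sets that share their arrays. The Runx1 probe sets thus did not follow a common pattern from array to array. The mean of the 5 differed by 0.08 (SE 0.12, 95% interval -0.19 to 0.35).

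Cbfb, the partner chain of Runx proteins, read 10.34, 9.84 and 10.53 in controls and 10.25, 10.37 and 10.44 in p300-deleted arrays. Control 2 was the lowest array, and the p300-deleted values lay inside the range of the controls. The difference was 0.12 (SE 0.17, 95% interval -0.28 to 0.51, adjusted p = 0.83 by limma). Its sign turned, to -0.08, without control 2.

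Ikzf1, which encodes Ikaros, read 4.45, 4.65 and 4.76 in controls and 4.53, 4.68 and 4.98 in p300-deleted arrays. Its probe set is dim. All readings lay below the array medians, 5.38 to 5.46, and above the highest bacterial controls, 3.64 to 3.99. The groups overlapped, and the difference was 0.11 (SE 0.14, 95% interval -0.22 to 0.44, adjusted p = 0.806 by limma). Its sign turned, to -0.02, without p300-deleted 3.

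Ikzf2, which encodes Helios, had the largest difference of the partner genes but not a call, and 1 control array decided this. Its probe set read 4.11 and 4.18 in controls 1 and 2, 5.68 in control 3, and 5.47, 5.02 and 5.29 in the p300-deleted arrays. The readings of controls 1 and 2 lay close to the highest bacterial control of those arrays, 3.97 and 3.99, so they are near background. Control 3 was higher than every p300-deleted array, and the other controls were lower than all of them. The difference was 0.60 (SE 0.38, 95% interval -0.25 to 1.46, adjusted p = 0.53 by limma), from 4.66 ± 0.89 (SD, n = 3) to 5.26 ± 0.23 (SD, n = 3). Without control 3 it was 1.12 with an adjusted p of 0.0186, in a fit that called 1.7% of all probe sets (384 of 22626), and without control 1 and control 2 it was 0.33 and 0.36. Averaged over its control probe sets, 18S ribosomal RNA read 5.68 and 6.03 in controls 1 and 2, 8.69 in control 3, and 7.74, 9.47 and 7.91 in the p300-deleted arrays, and with it as a covariate the Ikzf2 difference was 0.06 (adjusted p = 0.978). Whether the 18S level has a part in the Ikzf2 values was not tested further.

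The probe sets most like Ikzf2 over the 6 arrays, among 3383 named for 1 gene outside the 6 and differing by at least 0.3 between groups, were those of Hacd3, Net1, Sema4b and Cybb, with Pearson r of 0.98, 0.98, 0.97 and 0.96 over 6 arrays that they share with Ikzf2. Hacd3, an enzyme of very long chain fatty acid synthesis, read 5.11, 5.03 and 6.14 in controls and 6.18, 5.81 and 5.82 in p300-deleted arrays. Its high control 3 follows from the choice by likeness. Cybb, a subunit of the phagocyte NADPH oxidase, read 4.26, 4.33 and 4.88 in controls and 5.04, 4.74 and 4.87 in p300-deleted arrays. None of the 4 passed the test in the fit over all arrays (adjusted p of 0.353 to 0.728 by limma).

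Foxp1, the forkhead relative of Foxp3, had positive differences in all 7 of its probe sets, against 46.6% of all probe sets. However, 0 of the 7 passed the test in limma, and 2 had an unadjusted p under 0.05 (14.4% of all probe sets tested did). The 7 read the same gene in the same 6 samples and are not separate evidence. The largest difference was that of 1421141_a_at, which read 8.80, 8.60 and 8.98 in controls and 9.08, 9.34 and 9.32 in p300-deleted arrays. This was the only one of the 7 whose groups did not overlap, as was the case for 19.5% of all probe sets. The difference was 0.45 (SE 0.13, 95% interval 0.15 to 0.76, adjusted p = 0.176 by limma), and it stayed positive under all 13 alternatives run for this probe set, with adjusted p of 0.0733 to 0.55.

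Another probe set drawn from the same source sequence, 1421140_a_at, read 9.92, 9.19 and 9.99 in controls and 9.55, 9.50 and 10.14 in p300-deleted arrays, with a difference of 0.03 (SE 0.24, 95% interval -0.53 to 0.58). Its sign turned without p300-deleted 3, to -0.17, and without control 2, to -0.23. These were picked as the highest and lowest differences of the gene, and the 0.43 between them is likewise a description (p = 0.2 by the exact permutation test, with the same limit). The third probe set of that sequence, 1421142_s_at, lay between them at 0.23 (SE 0.11). Among the rest, 1435221_at read 8.58, 8.41 and 8.18 in controls and 8.58, 8.72 and 8.79 in p300-deleted arrays, a difference of 0.30 (SE 0.13, 95% interval 0.01 to 0.60, adjusted p = 0.335 by limma). The probe set 1435222_at was at 0.13 (SE 0.18), 1438802_at at 0.27 (SE 0.21) and 1455242_at at 0.17 (SE 0.13), all with overlapping groups. With the mean of its 7 probe sets, Foxp1 differed by 0.23 (SE 0.09, 95% interval 0.02 to 0.44, adjusted p = 0.294 by limma over genes). The 21 pairs of Foxp1 probe sets correlated from -0.45 to 0.96 over the 6 arrays, with a median of 0.22.

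**Figure D3:**
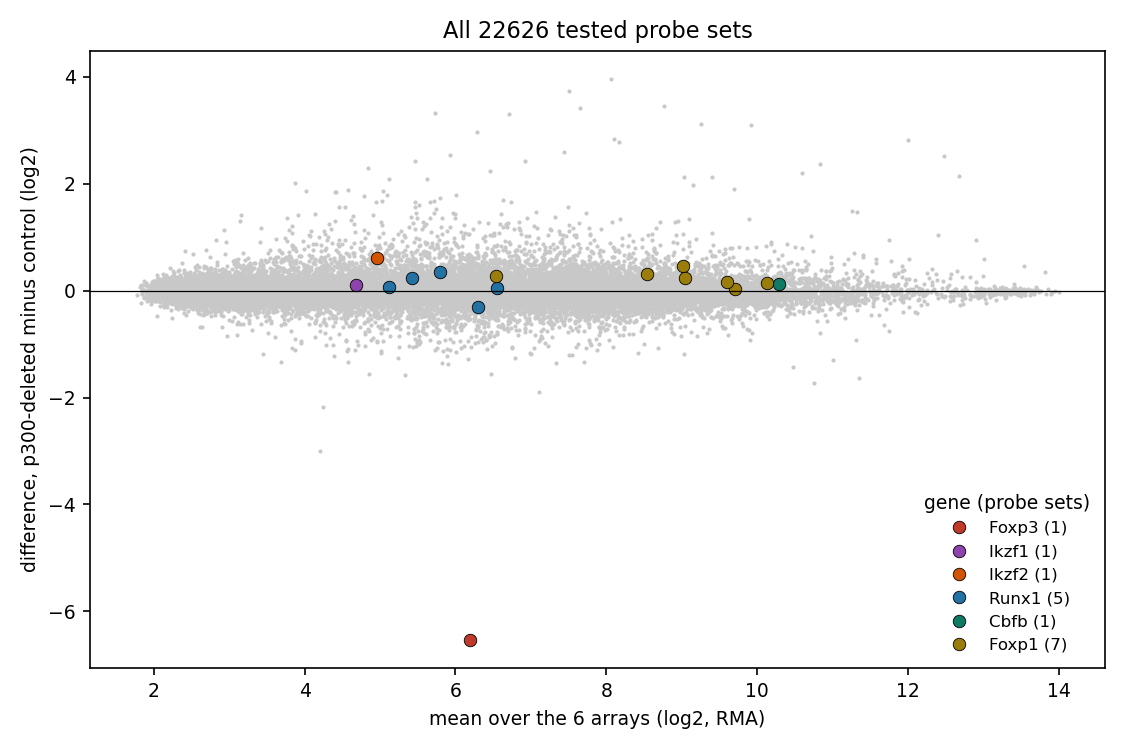
Difference between the groups (p300-deleted minus control, log2) against the mean of the 6 arrays (log2, RMA) for all 22626 tested probe sets in grey, with the probe sets of the 6 genes in colour. Foxp3, at -6.53, lies below every other point, and the 15 probe sets of the partner genes lie between -0.31 and 0.60.

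The genes whose arrays were most like those of Foxp3 were all lower in p300-deleted cells, a direction that the likeness fixes. Among 199 probe sets named for 1 gene outside the 6 and differing by at least 1 between groups, the closest were those of Rad51b, Sytl2, Tmprss13 and Csrp2, with Pearson r of 0.99, 0.99, 0.99 and 0.98 over the 6 arrays, which they share with Foxp3. Rad51b, a protein of homologous recombination, read 4.92, 5.15 and 4.94 in controls and 3.71, 3.85 and 3.80 in p300-deleted arrays. Sytl2, a synaptotagmin-like protein of vesicle traffic, read 8.39, 8.20 and 8.20 in controls and 7.27, 7.12 and 7.19 in p300-deleted arrays, and fell by 1.07 (SE 0.11, adjusted p = 0.00621 by limma). Tmprss13 codes for a serine protease of the cell membrane and fell by 2.18 (adjusted p = 0.00104). Its p300-deleted readings of 3.08, 3.33 and 3.03 lay below the highest bacterial control of each array. They are within the range of the background, so the size of this fall is uncertain. The p300-deleted readings of Rad51b and Csrp2 lay close to that control. Csrp2 belongs to the LIM-domain proteins and fell by 1.34 (adjusted p = 0.00578).

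The measured relatives of the partner genes showed no call. Of 7 listed genes of the Ikaros, Runx and Foxp families, 3 were measured. Of these 0 passed the test in limma, and 1 had an unadjusted p under 0.05 (14.4% of all probe sets tested did). Their median difference was -0.01, which is that of Foxp2, whose readings of 3.44 to 3.75 lay within the range of the bacterial controls, against -0.02 over the brightest probe set of all 12393 genes, of which 0.452% passed. Runx3, a Runx factor of cytotoxic T cells, read 5.92, 5.44 and 5.71 in controls and 5.16, 5.44 and 5.42 in p300-deleted arrays, a difference of -0.35 (SE 0.15, adjusted p = 0.329). Ikzf4, which encodes Eos, a corepressor of Foxp3, read 8.15, 7.93 and 8.25 in controls and 8.21, 8.37 and 8.60 in p300-deleted arrays, a difference of 0.28 (SE 0.14, adjusted p = 0.401). The groups overlapped for both genes.

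Other proteins that bind or modify Foxp3 formed a list of 26 genes, of which 23 were measured. Of these 0 rose, 0 fell and 23 did not pass in limma, with a median difference of -0.12. An unadjusted p under 0.05 in limma was seen for 5 of the 23, beside 14.4% of all probe sets tested. Cdk2, a cell cycle kinase that phosphorylates Foxp3, read 7.99, 7.77 and 7.69 in controls and 7.35, 7.38 and 7.35 in p300-deleted arrays, a difference of -0.46 (SE 0.11, adjusted p = 0.12). Satb1, a chromatin organiser, read 10.43, 10.40 and 10.10 in controls and 9.73, 9.89 and 10.04 in p300-deleted arrays, a difference of -0.42 (SE 0.13, adjusted p = 0.203). Groups did not overlap for 6 of the 23 (26.1%), these 2 included, beside 20.1% of all genes. Without control 3, 1 gene of the list passed. Crebbp, the paralogue of p300, differed by 0.04 (SE 0.12, adjusted p = 0.921).

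Regulators of Foxp3 transcription formed a list of 27 genes, 5 of them shared with the previous list, and 25 were measured. Of these 0 rose, 0 fell and 25 did not pass in limma, with a median of -0.14. An unadjusted p under 0.05 in limma was seen for 6 of the 25, beside 14.4% of all probe sets tested. Uhrf1, a protein that brings DNA methylation to newly made strands, read 7.96, 7.74 and 8.68 in controls and 7.25, 7.03 and 7.10 in p300-deleted arrays, a difference of -0.999 (SE 0.22, adjusted p = 0.0954). Id3, an inhibitor of E proteins, read 9.02, 9.41 and 8.90 in controls and 8.34, 8.70 and 8.58 in p300-deleted arrays, a difference of -0.57 (SE 0.16, adjusted p = 0.156). The p300-deleted arrays of both genes all lay below the controls. Without control 3, 1 gene of the list passed.

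Genes reported to be raised by Foxp3 had differences in both directions. Of 27 listed, 25 were measured, and 1 rose, 0 fell and 24 did not pass (8 at an unadjusted p under 0.05), and the median was 0.06. Among all genes 0.29% rose and 0.161% fell, and 14.4% of all probe sets tested had an unadjusted p under 0.05 in limma. The riser, Il10, is a suppressive cytokine. It read 6.41, 6.27 and 6.78 in controls and 7.45, 7.41 and 7.33 in p300-deleted arrays, a rise of 0.91 (SE 0.14, adjusted p = 0.0397). Il10 was past the threshold under 9 of 16 alternatives, with adjusted p of 0.0077 to 0.183, and the list's count was 0 without any one of p300-deleted 1, 2 or 3 or of control 1 or 2. Izumo1r, the folate receptor 4 of Treg, read 10.67, 10.83 and 10.50 in controls and 11.36, 11.31 and 11.19 in p300-deleted arrays, a difference of 0.62 (SE 0.12, adjusted p = 0.0707). Differences in the list ran from -1.16 to 0.91. Groups did not overlap for 7 of the 25 (28%), beside 20.1% of all genes. The lowest values, chosen after they were seen, were those of the lectin-like receptor Klrg1 at -1.16 (SE 0.29, adjusted p = 0.132, groups apart), the protease Gzmb at -1.12 (SE 0.42, adjusted p = 0.273), the integrin chain Itgae at -0.82 (SE 0.29, adjusted p = 0.251) and the costimulatory receptor Icos at -0.69 (SE 0.25, adjusted p = 0.265), by limma.

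Genes reported to be lowered by Foxp3 had differences in both directions. Of 14 listed, 11 were measured, and 0 rose, 0 fell and 11 did not pass in limma. Their median was -0.05, with a range of -0.46 to 1.04. An unadjusted p under 0.05 in limma was seen for 4 of the 11, beside 14.4% of all probe sets tested. Il21, a cytokine of helper T cells, read 4.58, 5.20 and 4.62 in controls and 5.63, 5.99 and 5.91 in p300-deleted arrays, a difference of 1.04 (SE 0.18, adjusted p = 0.06 by limma). It was called in 6 of 16 alternatives. Satb1, also in this list, was at -0.42, as given above. Without control 2, 1 gene of the list passed.

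**Figure D4:**
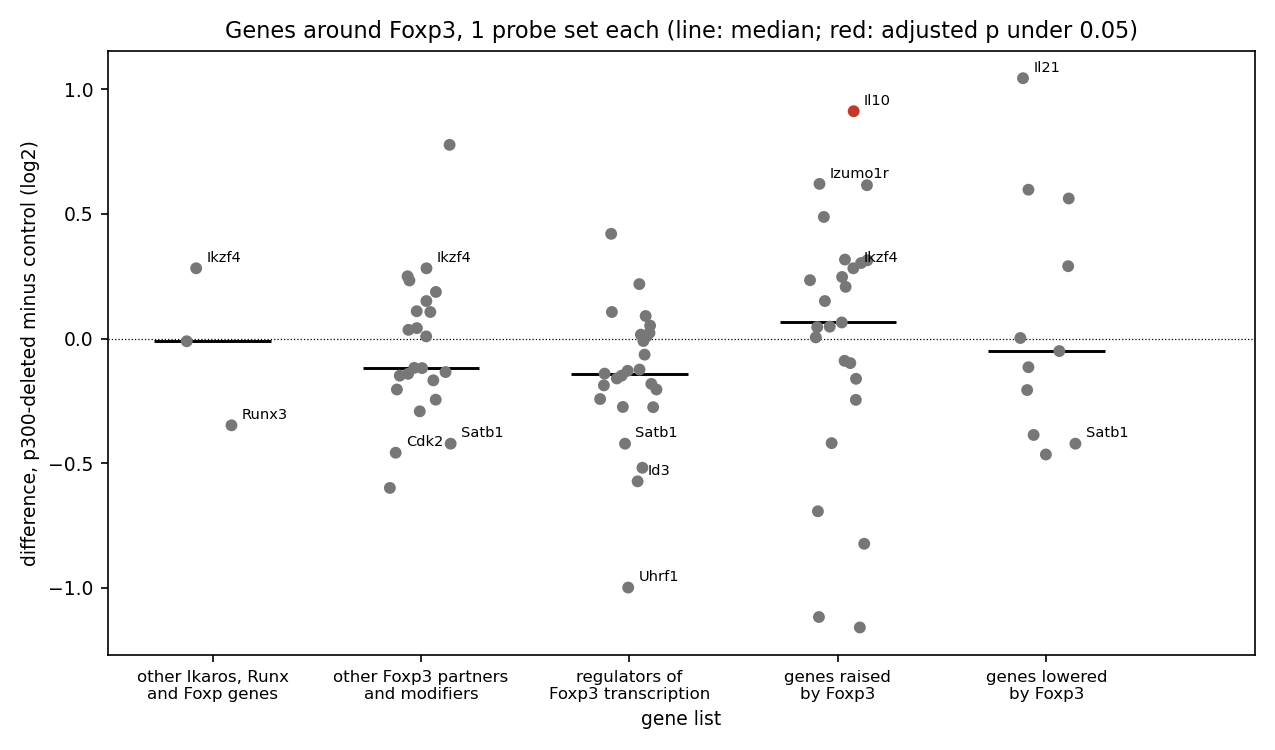
Difference between the groups (p300-deleted minus control, log2) for the measured genes of 5 lists around Foxp3, 1 probe set each, with lines for list medians and red for an adjusted p under 0.05. Il10, at 0.91, is the only gene past the threshold, and the medians lie between -0.14 and 0.06.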

How the data were processed

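The deposited table holds log2 expression values per probe set for 6 arrays, made by the authors with RMA, per the submitters' processing notes, with no version given. RMA corrects background, quantile-normalizes arrays and summarises probes, so a shift in the RNA content of cells leaves no trace and dim probe sets show differences that are too small. Of 22690 probe sets, 64 array controls were left out and 22626 were tested. The platform annotation gave 1 symbol for 20380, several for 691 and none for 1555, and 20351 of the single symbols were matched by gene ID to RefSeq (GRCm38.p6), with 0 updated.

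A linear model was fitted to all tested probe sets in limma 3.58.1 (lmFit, eBayes; R 4.3.3), with no covariate and no filter on dim probe sets, two-sided, at a Benjamini-Hochberg adjusted p under 0.05. Groups and replicate numbers were taken from the sample titles. Differences are p300-deleted minus control. Genes of lists were read by their brightest probe set. From each list every called gene was named, or those of smallest adjusted p up to 2, with Crebbp always, and for Foxp3 and Ikzf2 the 4 probe sets most like them. Marker lists were read as a check of the cells. The members, lists and alternatives were chosen with earlier results of these data known. On simulated data with 200 changed probe sets in 22626, the fit recovered 10.7% of changes of 0.5, 72.2% of changes of 1 and 94.2% of changes of 2 on the log2 scale. The simulation drew independent normal noise of the same spread in every array. The real arrays were unequal, with array weights of 0.468 to 1.92, so these shares may not hold for them. The 3 arrays per group limit the precision.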

Additional observations from a re-analysis of the deposited data

How the results depend on the processing

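The Foxp3 fall kept its direction and its call in all 15 alternatives that read it (-6.65 to -6.36; adjusted p of 1.02e-07 to 0.000105). It has no value without the probe sets whose suffix marks shared transcripts (_a_at, _s_at, _x_at), where the number of called member probe sets is 0. That number was 1 to 2 when single arrays were left out, the second being Ikzf2 without control 3. Of 214 values of the 15 partner probe sets, 198 kept direction and side, 1 became called and 15 changed sign without a call. Some alternatives cannot change the difference of a probe set, only its p-value. These are the dim filter, the trended variance, the replicate block, and the fits without shared probe sets or with the brightest probe set. Their kept directions, for Foxp3 too, are therefore fixed in advance. With the 18S covariate Cbfb turned to -0.052, Foxp1 1421140_a_at to -0.050 and Runx1 1452531_at to -0.12. With array weights Foxp1 1421140_a_at turned to -0.11 and Runx1 1427650_a_at to -0.040. Leaving out single arrays gave 0.33 to 1.12 for Ikzf2, -0.018 to 0.21 for Ikzf1, -0.082 to 0.26 for Cbfb, -0.23 to 0.17 for Foxp1 1421140_a_at, -0.075 to 0.30 for Foxp1 1435222_at, -0.20 to 0.21 for Runx1 1427650_a_at and -0.082 to 0.30 for Runx1 1452531_at.

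The count of called probe sets, 103, was 643 with array weights, 159 with median centring, 158 with a trended and robust variance, 43 without shared probe sets, 20 with the 18S covariate, 396 at an adjusted p under 0.10 and 24 to 384 when single arrays were left out. Deviations of same-numbered samples from their group means correlated at -0.00891, 0.0774 and -0.0815. Those of differently numbered samples correlated at -0.161 to 0.166. The labels do not say whether the numbers pair the samples, and correlations over 3 samples per group cannot settle it. The replicate number as a block gave 65 calls, left Foxp3 called (-6.53), brought the genes raised by Foxp3 to 0 and those lowered by Foxp3 to 1. Array weights called 1 gene among the Foxp3 partners and modifiers, 1 among the regulators of its transcription, 3 among genes raised and 1 among genes lowered by Foxp3. Genes raised by Foxp3 numbered 0 with the 18S covariate, 2 with the brightest probe set per gene, 2 with the trended variance and 0 to 1 without single arrays. Genes lowered numbered 1 with the brightest probe set, with the mean of probe sets and with the trended variance, and 0 to 1 without single arrays, as did the partners and the regulators. The cause of these shifts was not tested.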
